A study of Mus musculus with 8 samples.

Results

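Interferon-stimulated genes are the genes a cell switches on after it senses an interferon, and 39 of them were followed here across mouse lung squamous cell carcinoma (LUSC) lines. They were chosen by gene symbol, as a set of widely used members of this response, with earlier results of these data known. Every one was found among the 55487 genes of the deposited tables. All 39 passed the filter on low counts that left 18648 genes for testing. They fall into 10 groups by role, namely 4 sensors of foreign nucleic acid, 4 transcription factors, 5 oligoadenylate synthetases, 4 IFIT proteins, 4 genes of the Mx and viperin group, 2 of the ISG15 system, 2 membrane restriction factors, 4 guanylate-binding proteins, 4 immunity-related GTPases and 6 other effectors.

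The RNA came from 4 cell lines, named PL1, PL12, PLA and PLA4, which were derived from genetically engineered mouse models of LUSC and studied for loss of the receptor ACKR3. Each line has 2 libraries, so 8 libraries were measured by bulk RNA-seq. The labels do not spell out the letters of the line names, the alleles of the parent mice or any treatment, and PLA with PLA4 are called the PLA lines here and PL1 with PL12 the PL lines. No label names separate cultures behind the paired libraries of a line, and p-values therefore reflect the variation among these libraries, possibly only technical. Ackr3 itself was between 0.0254 and 0.387 CPM (counts scaled by library size) in the libraries of the PLA lines and between 25.3 and 86.3 CPM in those of the PL lines. Libraries held 48857912 to 142458240 counts, so that 3 counts, taken as a floor, equal 0.0614 CPM in the shallowest and 0.0211 CPM in the deepest. The 6 markers of squamous or basal epithelium, among them the keratin genes Krt5 and Krt14, summed to 7299 to 14540 TPM (abundance scaled for transcript length) in PLA, PLA4 and PL1 and to 1320 and 1396 TPM in PL12.

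Type I interferons bind the receptor chains IFNAR1 and IFNAR2, whose kinases JAK1 and TYK2 start the signal. STAT2 and IRF9 are parts of the factor ISGF3, which binds the interferon-stimulated response element (ISRE), while interferon gamma acts mainly through the gamma-activated site (GAS). The induced proteins block viruses and other intracellular pathogens, and several of them are sensors and transcription factors that amplify the response.

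The ISRE letters were searched as GAAA, any 2 bases, GAAA, and the GAS letters as TTCNNNGAA, on both strands of windows from 250 bases before to 50 bases after each annotated start (RefSeq, GRCm38.p6). A match describes the letters and is not a measured binding site. The table held 30 of the 39 members. ISRE letters were present for 20 of these (66.7%) and for 1079 of 27025 genes in the table (3.99%). GAS letters were present for 9 of the 30 members and for 9.55% of genes. The ISRE and GAS letters may overlap, and 7 members had both. A longer run of GAAA repeated 3 times with 2 bases between repeats occurred in 6 members, namely Gbp3, Isg15, Oas1a, Trim21, Bst2 and Irgm1, and in 36 genes of the table (0.133%).

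The stretches below lie upstream of the start and show how the letters are arranged in 8 members. They run 5′ to 3′ on the strand of the gene, and capitals mark ISRE and GAS letters. Isg15 lies at chr4:156200855-156200916 (minus strand), Oas3 at chr5:120777705-120777754 (minus), Ifit3 at chr19:34583353-34583436 (plus), Ifit3b at chr19:34607749-34607832 (plus), Gbp2 at chr3:142620584-142620633 (plus), Gbp7 at chr3:142530210-142530312 (plus), Irf1 at chr11:53769904-53769952 (plus) and Bst2 at chr8:71537567-71537628 (minus).
Isg15: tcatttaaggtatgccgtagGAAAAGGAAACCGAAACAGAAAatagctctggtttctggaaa
Oas3: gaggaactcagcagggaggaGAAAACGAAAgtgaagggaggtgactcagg
Ifit3: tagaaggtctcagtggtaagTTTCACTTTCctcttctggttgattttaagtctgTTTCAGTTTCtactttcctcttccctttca
Ifit3b: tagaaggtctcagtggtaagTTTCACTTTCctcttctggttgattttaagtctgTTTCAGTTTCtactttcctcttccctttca
Gbp2: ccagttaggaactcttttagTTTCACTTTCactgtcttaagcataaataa
Gbp7: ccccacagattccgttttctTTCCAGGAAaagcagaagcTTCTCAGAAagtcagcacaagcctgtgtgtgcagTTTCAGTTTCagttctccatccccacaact
Irf1: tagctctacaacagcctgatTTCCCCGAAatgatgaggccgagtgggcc
Bst2: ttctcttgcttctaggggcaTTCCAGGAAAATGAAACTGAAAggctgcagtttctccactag

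Isg15 carried 3 overlapping ISRE matches between bases -78 and -57. Ifit3 and Ifit3b, which are neighbours of closely related sequence, had the same 84 bases around their ISRE pairs, which begin at -156 in Ifit3 and -188 in Ifit3b. Gbp7 had GAS letters in 2 places and ISRE letters close to the start, whereas Irf1 had GAS letters at -90 to -82 and no ISRE letters in its window. In Bst2 the GAS letters ran into the ISRE letters. ISRE letters were present in all 4 guanylate-binding proteins and in the 3 immunity-related GTPases of the table. Irf7, Irf9, Oasl1, Oasl2, Cmpk2, Ifi44, Xaf1 and Samd9l held neither motif in these windows.

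**Figure D1:**
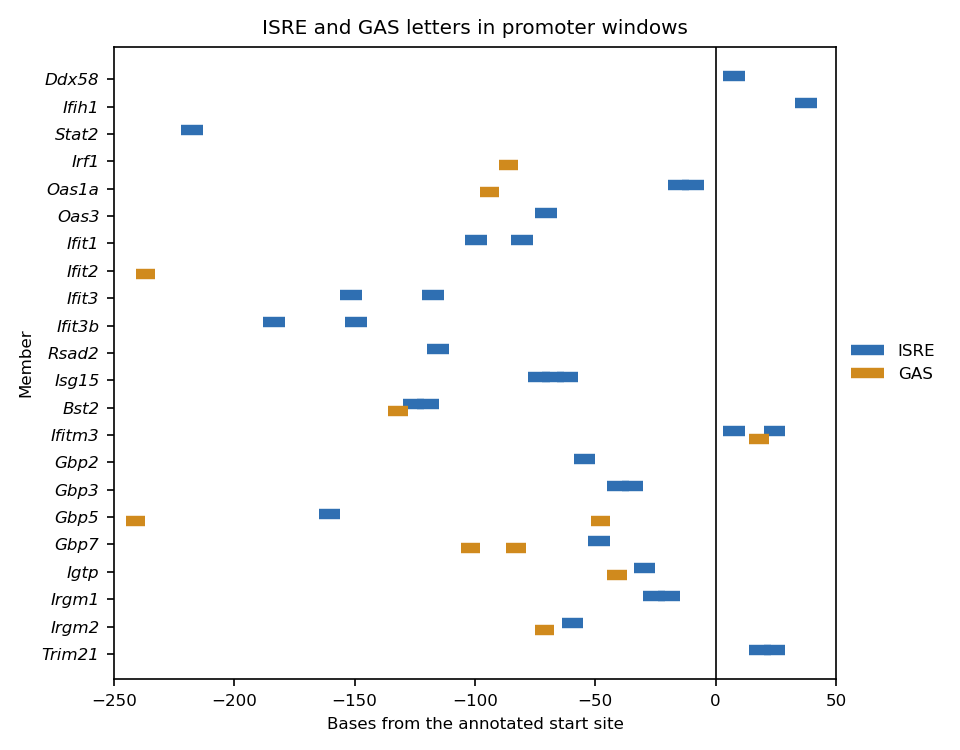
Position of ISRE (blue) and GAS (orange) letters in the promoter windows of the 22 members that held either, with bases from the annotated start on the horizontal axis. Of the 31 ISRE matches 25 began upstream of the start, as did 10 of the 11 GAS matches.

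The 39 genes were expressed most in PLA. PLA had the highest mean of the 4 lines for 36 members, the exceptions being Ifitm3 (highest in PL1), Cmpk2 (PL12) and Gbp2 (PLA4). Both PLA libraries lay above the other 6 libraries for 34 members (87.2%), where 19.8% of all genes tested did so. The mean over members of log2(CPM + 1) was 6.26 and 6.20 in PLA. It was 4.73 and 2.88 in replicates 1 and 2 of PLA4, 4.14 and 3.95 in PL12, and 2.85 and 4.16 in PL1. The 2 libraries of PLA were close together and above all others, whereas PLA4, PL1 and PL12 overlapped and have no order beyond their spread.

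The members took 0.576% and 0.553% of all counts in PLA, 0.332% and 0.152% in PLA4, 0.143% and 0.133% in PL12, and 0.210% and 0.322% in PL1. Their median level was 85.8 and 83.6 CPM in PLA, 27.8 and 5.72 CPM in PLA4, 13.3 and 11.1 CPM in PL12, and 4.28 and 16 CPM in PL1. None was at 0 in any library, and 31 to 39 of them reached 1 CPM in each. The lowest line was PL1 for 19 members, PL12 for 12 and PLA4 for 8. Per transcript length (mean TPM), Ifitm3 was the most abundant member in every line, followed in PLA by Isg15 and Bst2. In bulk RNA a smaller number of cells that express a gene and less RNA in each cell cannot be told apart.

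**Figure D2:**
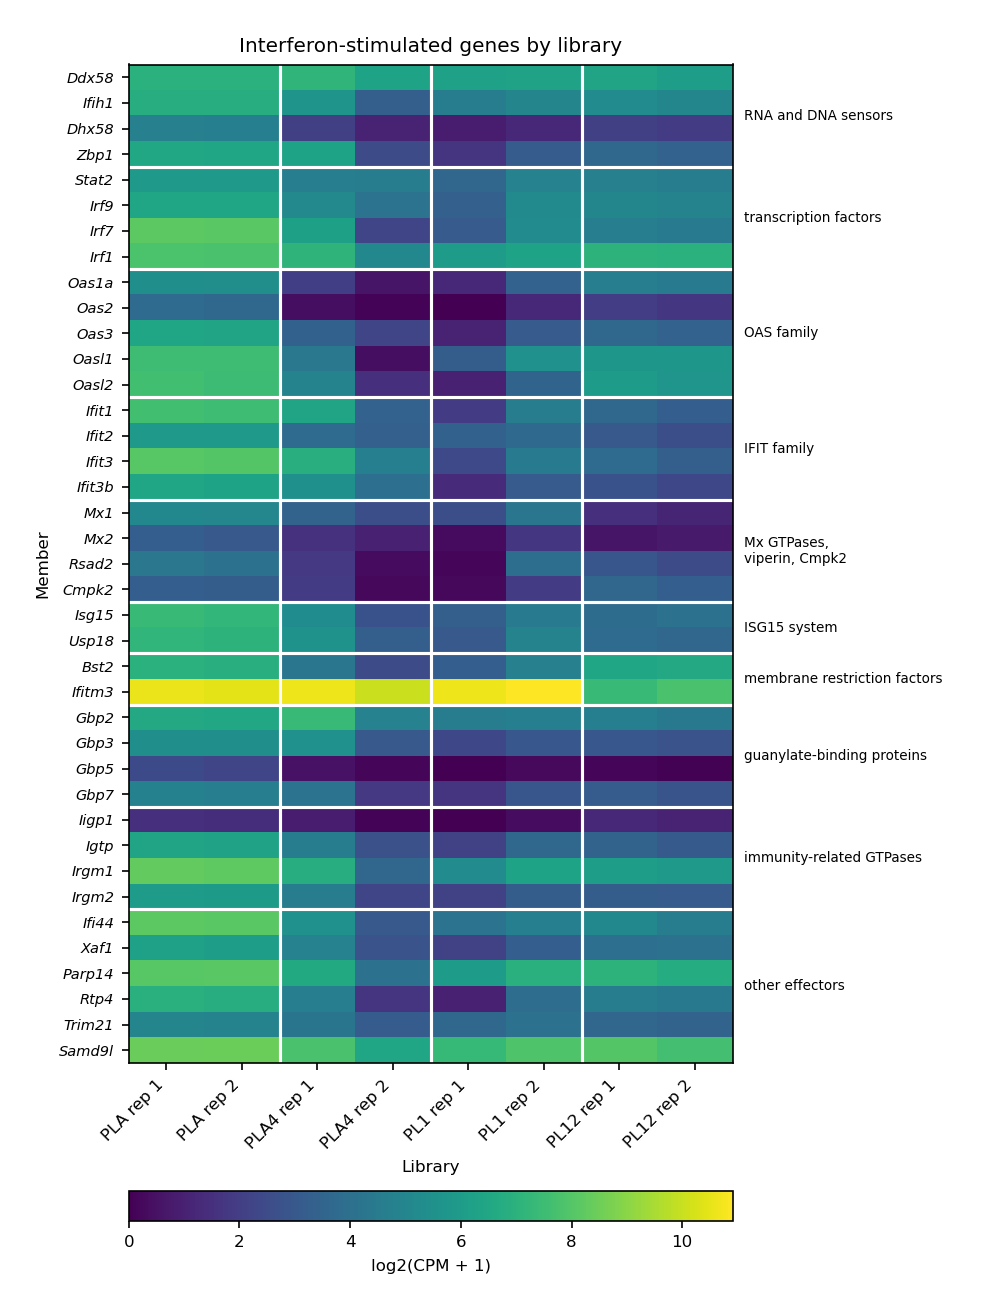
Level of each member (rows, grouped by role) in each library (columns), as log2(CPM + 1) in colour. The PLA columns are brightest in most rows, and the libraries of PLA4 and PL1 differ within each line.

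The libraries of PLA4 and of PL1 stood apart from each other in nearly every member. In PLA4, replicate 1 was above replicate 2 for 39 of 39 members. In PL1, replicate 2 was above replicate 1 for 39 of 39. Among the 36 members with a mean of at least 1 CPM in PLA4, 30 were more than 2-fold lower in replicate 2, against 8.75% of all genes at that level, and their median difference was -2.41 on the log2 scale. Among the 36 such members in PL1, 24 were more than 2-fold higher in replicate 2, against 7.35% of all genes, with a median difference of 1.55. None of 39 members in PLA passed 2-fold, where 0.04% of all genes did so upward and 0.112% downward in replicate 2, and none of 37 in PL12, where 0.671% and 0.21% did. These are differences between single libraries, with no replicate check.

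The size of the difference varied widely among members. Oasl1, an inhibitor of Irf7 translation in the mouse, was at 19.6 CPM in PLA4 replicate 1 and at 0.325 CPM in replicate 2. Rsad2, which encodes the antiviral enzyme viperin, was at 0.150 CPM in PL1 replicate 1 and at 14.2 CPM in replicate 2. Stat2 stayed at 24.1 and 24.0 CPM in PLA4, and Ddx58 at 74 and 76.8 CPM in PL1. Across roles, all 6 other effectors, all 3 guanylate-binding proteins and all 4 oligoadenylate synthetases above 1 CPM passed 2-fold in PLA4, as did 2 of 4 genes of the Mx and viperin group. In PL1 all 4 oligoadenylate synthetases and all 4 genes of the Mx and viperin group did, with 1 of 3 guanylate-binding proteins and 2 of 6 other effectors. Fibroblast markers moved in PL1 as well, since the 5 of them summed to 0.78 TPM in replicate 1 and 81.9 TPM in replicate 2, with Col1a1 at 0.575 and 254 CPM. In PLA4 they summed to 2.62 and 2.96 TPM, and the 4 general epithelial markers to 2339 and 451 TPM. Only 2 of those 4 epithelial markers were more than 2-fold lower in PLA4 replicate 2. The 6 squamous or basal markers summed to 14153 and 14540 TPM in PLA4, and to 13631 and 7299 TPM in PL1. The part of these cell type markers in the library differences was not tested.

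**Figure D3:**
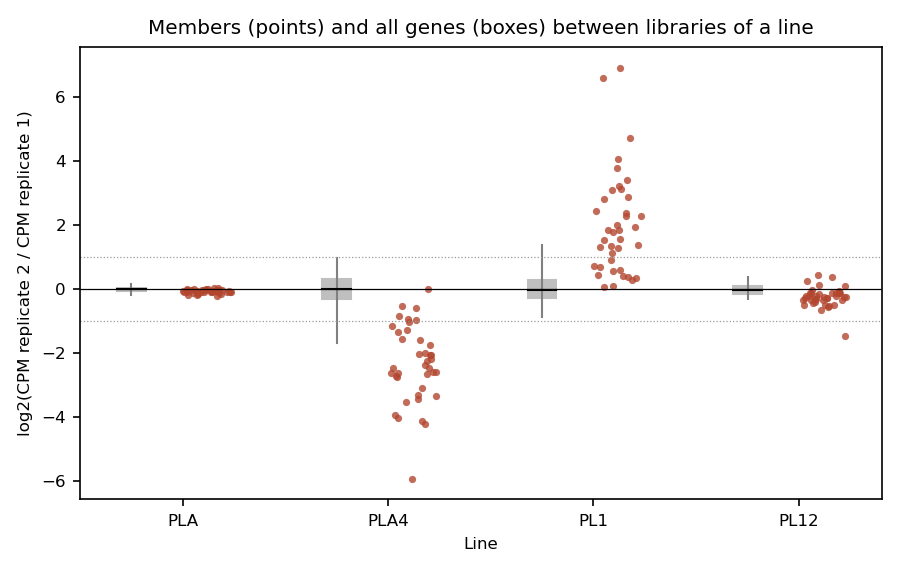
Log2 ratio of replicate 2 to replicate 1 in each line, with a point per member. Grey boxes give the middle 50% of all genes with at least 1 CPM, lines their 5th to 95th percentile, and dotted lines 2-fold. The points of PLA4 lie at or below 0 and those of PL1 above it, while those of PLA lie close to 0.

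Each line was then compared with the others by edgeR's quasi-likelihood test on the 8 libraries, with 1 mean per line and adjusted p (Benjamini-Hochberg over all 18648 genes) under 0.05 as the threshold. PLA was called higher than PL1 for 14 members against 14.4% of all genes, higher than PL12 for 18 against 20.4%, and higher than PLA4 for 10 against 14.9%. As shares of the 39 these are 35.9%, 46.2% and 25.6%. No member was called lower in PLA than in another line. The median log2 fold change over members was 2.89 against PL1, 2.29 against PL12 and 2.26 against PLA4, where the medians of all genes were -0.01, 0.05 and -0.04. In each of the 3 comparisons 38 of 39 fold changes were positive. The 3 comparisons share the PLA libraries.

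A call in all 3 comparisons, higher in PLA each time, was made for 6 members (15.4%) and for 5.08% of all genes. These were Dhx58, Stat2, Oas3, Ifit2, Gbp5 and Ifi44. The number depended on which libraries were included. It was 31 without PL1 replicate 1 and PLA4 replicate 2 together, where 11.3% of genes were called, and 36 without PL1 replicate 2 and PLA4 replicate 1 together, where 15.3% were. In those fits the spread came from PLA and PL12 alone, and the lone libraries were assumed to vary like them. Among single libraries left out, the number was 21 without PLA4 replicate 1, where 6.97% of genes were called, and 10 without PL1 replicate 2, where 5.38% were. It was 2 without PLA replicate 1 or 2 (0.596% and 0.585% of genes) and 1 without PL12 replicate 1 or 2 (1.85% and 1.77%). Ifit2 was called in all 16 alternatives, Dhx58 in 14, Gbp5, Ifi44 and Oas3 in 10 each, and Stat2 in 8.

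The counts of the single comparisons moved in the same way. Here the share of all genes is for calls in either direction, and it was 27.3% against PL1, 37.7% against PL12 and 29.0% against PLA4 with all libraries. For PL1 the 14 members became 2 without PLA replicate 1 or 2 (5.57% and 5.54% of genes), 5 without PL12 replicate 1 or 2 (15.8% and 16%), 6 without PL1 replicate 1 (18.3%) and 31 without PLA4 replicate 1 or 2 (35.0% and 35.3%). For PL12 the 18 became 4 and 5 without PLA replicate 1 and 2 (12.5% and 12.6%), and 3 and 2 without PL12 replicate 1 and 2 (14.9% each). For PLA4 the 10 became 2 without PLA replicate 1 or 2 (5.5% and 5.35%), 2 without PL12 replicate 1 or 2 (17.5% and 17.9%) and 26 without PLA4 replicate 1 (30.5%). PLA and PL12, whose libraries lie close together, could also be fitted by themselves (a test added after seeing the data). PLA was then called higher for 37 members, against 35.7% of all genes.

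**Figure D4:**
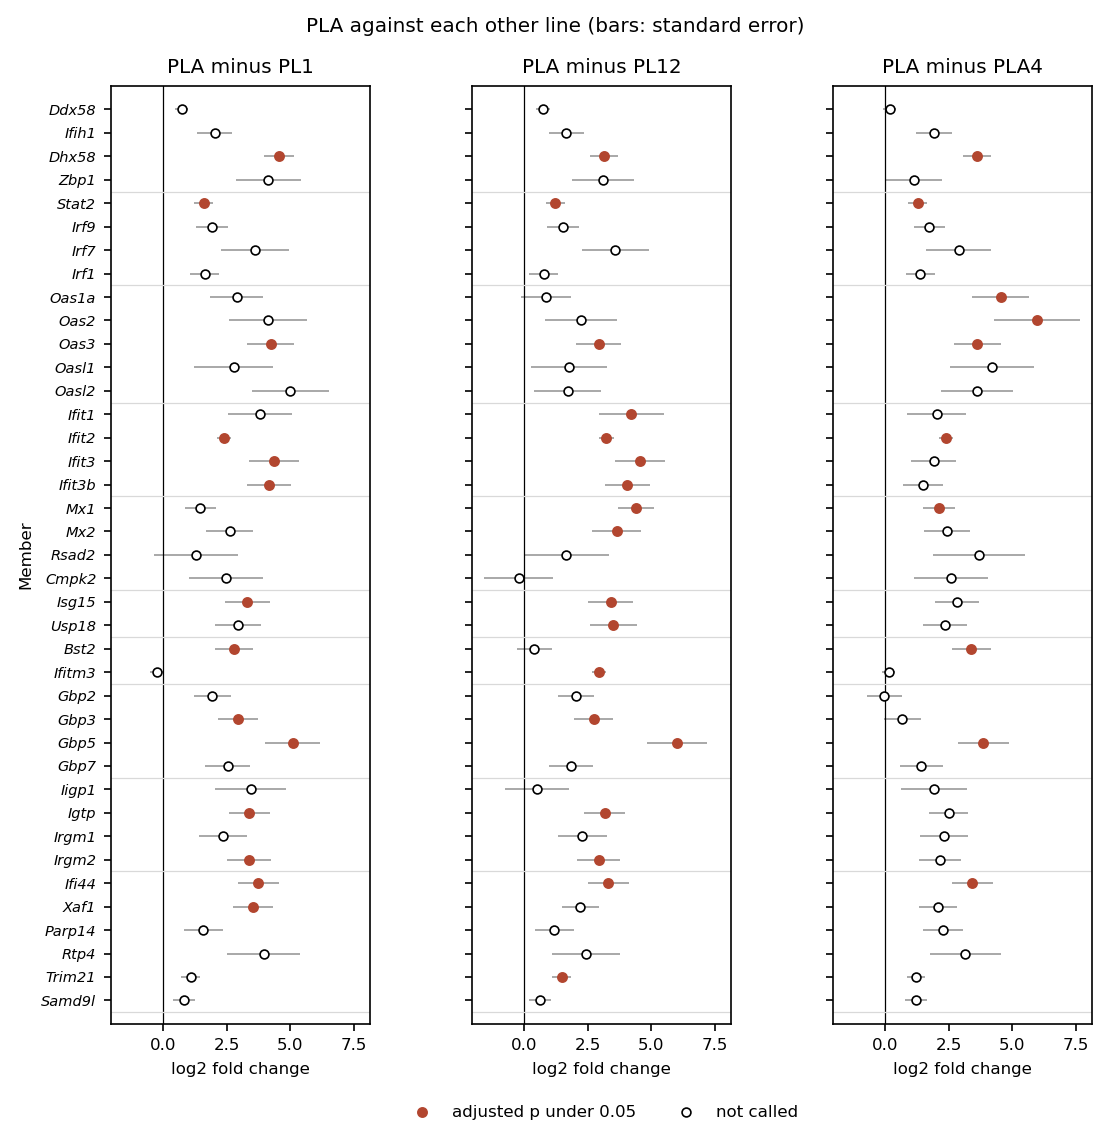
Log2 fold change of PLA minus each other line for every member, with its standard error from edgeR. Filled points passed adjusted p under 0.05. Nearly all points lie to the right of 0, and filled ones number 14, 18 and 10 from left to right.

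Of the 4 sensors, Dhx58 and Ddx58 mark the ends of the range. Dhx58 encodes LGP2, a helicase without signalling domains that tunes the other RNA sensors. It was at 26.1 and 25.4 CPM in PLA, 3.17 and 1.05 CPM in PLA4, 3.17 and 2.71 CPM in PL12, and 0.828 and 1.33 CPM in PL1. PLA was far above every other library, and Dhx58 was called against PL1 (log2 fold change 4.57 ± 0.58 SE, edgeR adjusted p = 0.00358), PL12 (3.13 ± 0.54, adjusted p = 0.00663) and PLA4 (3.61 ± 0.55, adjusted p = 0.00631). Ddx58 encodes RIG-I, the sensor of short or triphosphorylated RNA. Its levels were 125 and 124 CPM in PLA, 142 and 79.4 in PLA4, 81.2 and 68.0 in PL12, and 74 and 76.8 in PL1. PLA4 spanned PLA, and no comparison of Ddx58 passed. Ifih1 (the RNA sensor MDA5) and Zbp1 (a sensor of Z-form nucleic acid) were not called either, with PLA means 3.16 and 2.15 times those of the next line. Zbp1 was at 79.4 CPM in PLA4 replicate 1 and 4.62 CPM in replicate 2.

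The transcription factors differed in how widely they ranged. Stat2, the ISGF3 subunit, was at 58.3 and 58.5 CPM in PLA, 24.1 and 24.0 in PLA4, 26.2 and 23.8 in PL12, and 11.2 and 27.2 in PL1. It was called against all 3 lines, with log2 fold changes of 1.60 ± 0.38, 1.22 ± 0.37 and 1.28 ± 0.37 SE against PL1, PL12 and PLA4, the least significant being PLA4 (edgeR adjusted p = 0.0455). Irf9, its DNA-binding partner, was at 85.8 and 83.6 CPM in PLA, 34.2 and 16.7 in PLA4, 30.8 and 28.1 in PL12, and 9.16 and 35.2 in PL1. The PLA libraries of Irf9 were above all others, but no comparison passed (lowest edgeR adjusted p = 0.0622, against PL1). Irf7, the factor that drives secondary production of type I interferon, was at 284 and 277 CPM in PLA, 72.2 and 3.87 in PLA4, 24.5 and 22.2 in PL12, and 7.86 and 37.8 in PL1. Its PLA mean was 7.38 times that of the next line, and no comparison of Irf7 passed (edgeR adjusted p = 0.0869, 0.0750 and 0.139 against PL1, PL12 and PLA4). The gap between the PLA4 libraries is part of the shared spread in each of these tests. Irf1, the factor most tied to interferon gamma and, with Ifit2, 1 of the 2 members with GAS but no ISRE letters, was at 223 and 217 CPM in PLA, 137 and 33.2 in PLA4, 131 and 126 in PL12, and 61.9 and 80.5 in PL1. No comparison of Irf1 passed.

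The oligoadenylate synthetases make the messenger that activates RNase L, apart from the inactive OAS-like Oasl1. Oas3 was at 83.3 and 82.0 CPM in PLA, 9.52 and 3.90 in PLA4, 11.9 and 9.66 in PL12, and 1.05 and 7.73 in PL1. No other library came near PLA, and Oas3 was called against PL1 (4.23 ± 0.94, edgeR adjusted p = 0.0206), PL12 (2.94 ± 0.88, adjusted p = 0.0409) and PLA4 (3.62 ± 0.91, adjusted p = 0.0287). Oas2 had the widest range of line means of all 39 members, 63.1-fold, from 13.2 and 11.6 CPM in PLA to 0.317 and 0.0761 in PLA4. It was at 0.0115 CPM in PL1 replicate 1, which is 1 count, at 1.38 CPM in replicate 2, and at 2.99 and 2.34 CPM in PL12. Oas2 was called against PLA4 alone of the 3 lines (5.98 ± 1.69, edgeR adjusted p = 0.0412). Oasl1, the member of this family with the highest mean CPM, was at 181 and 183 CPM in PLA, 54.3 and 53.6 in PL12, and 8.27 and 45.2 in PL1, and was not called. Oas1a was called against PLA4 (4.55 ± 1.12, edgeR adjusted p = 0.0274), and PL12 was its second highest line at 24.1 and 22.0 CPM.

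The IFIT proteins bind foreign or uncapped RNA and block its translation. Ifit2 was at 59.3 and 57.2 CPM in PLA, 13.2 and 9.10 in PLA4, 7.39 and 5.09 in PL12, and 9.45 and 12.4 in PL1. In PLA4 and PL1 its libraries lay closer together than those of Ifit1, Ifit3 and Ifit3b. Ifit2 was called against PL1 (2.41 ± 0.28), PL12 (3.23 ± 0.29) and PLA4 (2.39 ± 0.28), with edgeR adjusted p of 0.00264, 0.000887 and 0.00288. Ifit3 was at 266 and 252 CPM in PLA, 114 and 25.3 in PLA4, 13.1 and 8.90 in PL12, and 4.28 and 20.9 in PL1. Every library of the PLA lines was above every library of the PL lines for Ifit3 and for Ifit3b. Both were called against PL1 and PL12 but not against PLA4 (edgeR adjusted p = 0.154 and 0.200). Their transcripts share 51.2% and 44.95% of their 50-base words with other genes, nearly all with each other, so how reads were divided between them is uncertain. Ifit1 was called against PL12 alone (4.21 ± 1.28, edgeR adjusted p = 0.0429).

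In the Mx and viperin group PL12 was lowest for both Mx genes. Mx1, a dynamin-like GTPase that traps viral nucleocapsids, was at 33.1 and 31.7 CPM in PLA, 9.98 and 5.07 in PLA4, 1.88 and 1.19 in PL12, and 5.09 and 18.4 in PL1. It was called higher in PLA than in PL12 (4.41 ± 0.71, edgeR adjusted p = 0.00501) and PLA4 (2.11 ± 0.63, adjusted p = 0.0494). Mx2 was called against PL12 (3.65 ± 0.97, edgeR adjusted p = 0.0274). Cmpk2, a mitochondrial nucleotide kinase whose gene adjoins Rsad2 on chromosome 12, was at 8.6 and 8.24 CPM in PLA and 11 and 8.69 in PL12, with 2.67 and 0.166 in PLA4 and 0.173 and 2.86 in PL1. Both PL12 libraries were above both PLA libraries for Cmpk2, by little in replicate 2. Neither Rsad2 nor Cmpk2 was called in any comparison.

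ISG15 is a ubiquitin-like protein and USP18 the protease that removes it and restrains receptor signalling. Isg15 was at 161 and 150 CPM in PLA, 38.3 and 5.72 in PLA4, 13.4 and 15.8 in PL12, and 9.0 and 22.2 in PL1. It was called against PL1 (3.31 ± 0.88, edgeR adjusted p = 0.0362) and PL12 (3.41 ± 0.89, adjusted p = 0.0259), and missed the threshold against PLA4 (2.82 ± 0.86, adjusted p = 0.0524). Usp18 was at 143 and 134 CPM in PLA, 45.9 and 8.94 in PLA4, 13.3 and 11.1 in PL12, and 7.18 and 28.8 in PL1. Its PLA libraries were above all others, and it was called against PL12 (3.51 ± 0.92, edgeR adjusted p = 0.0266).

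The membrane restriction factors differed from each other in their order of lines. Ifitm3, which blocks viral fusion in endosomes, was at 1519 and 1419 CPM in PLA, 1609 and 1057 in PLA4, 168 and 217 in PL12, and 1576 and 1924 in PL1. PLA lay below PL1, the libraries of PLA4 overlapped with both, and PL12 was lower than all of them, with edgeR adjusted p of 0.000990 for PLA minus PL12 (2.93 ± 0.27), 0.00120 for PLA4 minus PL12 and 0.00155 for PL12 minus PL1. Bst2, or tetherin, which holds budding virus at the cell surface, was at 125 and 113 CPM in PLA, 18.2 and 4.59 in PLA4, 86.0 and 94.0 in PL12, and 8.63 and 25.7 in PL1. It was high in PLA and PL12 and low in the other lines. PLA was called higher than PL1 (2.79 ± 0.74, edgeR adjusted p = 0.0355) and PLA4 (3.38 ± 0.76, adjusted p = 0.0201), and not than PL12 (0.40 ± 0.69, adjusted p = 0.679).

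The guanylate-binding proteins, which coat the vacuoles of intracellular pathogens, include the gene that stood out most by ratio. Gbp5 was at 4.39 and 3.91 CPM in PLA, 0.441 and 0.132 in PLA4, 0.102 and 0.0368 in PL12, and 0.0230 and 0.211 in PL1. Outside PLA it was under 1 CPM in every library, the lowest value, in PL1 replicate 1, being 2 counts, and its PLA mean was 14.5 times that of the next line. Gbp5 was called against PL1 (5.09 ± 1.09, edgeR adjusted p = 0.0186), PL12 (6.0 ± 1.18, adjusted p = 0.00999) and PLA4 (3.86 ± 1.01, adjusted p = 0.0331). Gbp2 was at 95.9 and 91.1 CPM in PLA, 165 and 27.5 in PLA4, 25.2 and 20.5 in PL12, and 23.4 and 25.2 in PL1. The PLA4 libraries lay on either side of PLA, and both PLA lines were above both PL lines in every library. The same held for Gbp3, which was called against PL1 (2.94 ± 0.78, edgeR adjusted p = 0.0364) and PL12 (2.73 ± 0.78, adjusted p = 0.0350). Gbp7 was not called in any comparison of PLA with another line. Gbp5, Gbp7, Gbp3 and Gbp2 lie within 144.0 kb on chromosome 3.

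The immunity-related GTPases act on pathogen vacuoles, with the Irgm proteins as their regulators. Irgm1, the most abundant, was at 309 and 290 CPM in PLA, 111 and 11.1 in PLA4, 66.1 and 56.3 in PL12, and 37.1 and 80.3 in PL1. Its PLA libraries were above all others and no comparison of Irgm1 passed. Igtp was called against PL1 (3.39 ± 0.81, edgeR adjusted p = 0.0263) and PL12 (3.18 ± 0.81, adjusted p = 0.0237), as was Irgm2. The annotated genes of Igtp and Irgm2 overlap on the same strand over 7974 bases, so reads from that stretch are uncertain. Iigp1 was at 1.76 and 1.72 CPM in PLA, 0.844 and 0.0831 in PLA4, 1.33 and 1.14 in PL12, and 0.0115 (1 count) and 0.300 in PL1, and was not called.

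Among the other effectors Ifi44, a cytoplasmic protein induced by type I interferon, was at 286 and 275 CPM in PLA, 45.3 and 7.15 in PLA4, 33.1 and 23.6 in PL12, and 16.7 and 24.9 in PL1. It was called against PL1 (3.75 ± 0.82, edgeR adjusted p = 0.0197), PL12 (3.31 ± 0.80, adjusted p = 0.0204) and PLA4 (3.42 ± 0.80, adjusted p = 0.0235). Samd9l, a growth and translation inhibitor with the highest mean CPM of this group, was at 343 and 349 CPM in PLA, 218 and 85.3 in PLA4, 252 and 201 in PL12, and 157 and 236 in PL1. The gap from PLA to the next line was small for Samd9l, 1.53 times, and no comparison passed. Rtp4, a transmembrane chaperone, was at 120 and 112 CPM in PLA, 24.1 and 2.12 in PLA4, 22.7 and 20.6 in PL12, and 1.01 and 13.9 in PL1, and was not called. Xaf1, an antagonist of the apoptosis inhibitor XIAP, was called against PL1 (3.55 ± 0.78, edgeR adjusted p = 0.0203), and Trim21, an intracellular antibody receptor, against PL12 (1.48 ± 0.37, adjusted p = 0.0226). Parp14, an ADP-ribosyltransferase, was not called.

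Between the lines other than PLA few members were called with all 8 libraries. The libraries of PLA4 and of PL1 stand far apart, so low counts do not show that these lines are alike. PLA4 minus PL1 gave 0 called members, against 8.54% of all genes called in either direction, and a median log2 fold change of 0.49. The count was 6 and 8 without PLA4 replicate 1 and 2 (11.5% and 13.5% of genes), and 2 without PL1 replicate 2 (6.24%). PLA4 replicate 1 was above both PL1 libraries for 26 members and PLA4 replicate 2 below both for 16, so the direction depended on which library was read. PLA4 was called higher than PL12 for 3 members, Ifit2, Mx1 and Ifitm3, against 19.2% of all genes. It was called lower for 2, Oas1a and Bst2, against 16.8%. These 5 calls, beside 36.0% of genes in either direction, became 1 without PL12 replicate 1 or 2 (12.3% and 13.2%), 2 without either PLA library (22.4% each), 8 without PL1 replicate 1 or 2 (38.2% and 38.8%) and 11 without PLA4 replicate 1 or 2 (33.7% and 35.0%). PL12 was called higher than PL1 for 0 members, against 11.2% of all genes, and lower for 2, Mx1 and Ifitm3, against 12.5%. Those 2, beside 23.7% of genes in either direction, became 1 without PLA replicate 1 or 2 (10.4% and 10.5%), 1 without PL12 replicate 1 or 2 (3.82% and 4.07%), 6 without PLA4 replicate 1 or 2 (31.3% and 31.1%) and 6 without PL1 replicate 2 (20.3%).

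The comparison that ACKR3 loss implies sets both PLA lines against both PL lines. All libraries of the PLA lines were above those of the PL lines for 4 members, namely Ifit3, Ifit3b, Gbp2 and Gbp3 (10.3%), against 8.56% of all genes. No member was called when PLA and PLA4 were each set against PL1 and PL12, against 1.99% of all genes. That count was 4 without PLA4 replicate 2 (3.9% of genes) and 1 without PL1 replicate 2 (1.88%). It was 17 without PL1 replicate 1 and PLA4 replicate 2 together (12.5%), and 2 without PL1 replicate 2 and PLA4 replicate 1 together (10.7%). On counts summed per line, 2 lines against 2, edgeR called 0 members and 0% of all genes, with 9 members at an unadjusted p under 0.05 (4.60% of all genes were) and a lowest adjusted p of 0.852. DESeq2 called 7 members and 1.88% of all genes on the same sums. The median log2 fold change over members was 1.94 with 38 positive, and without line PLA it was 0.07 with 23 positive.

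The rest of the pathway was read from lists of genes outside the 39. The interferon genes themselves were near 0, since 13 of 21 had no count in any library and none passed the filter. Ifnb1 was at most 0.0508 CPM and Ifnz at most 0.0762 CPM, both in PLA replicate 2, and no interferon gene exceeded 9 counts in a library. All 11 receptor chains, kinases and STATs were expressed, from 12.6 CPM (Ifnlr1 in PL12) to 475 CPM (Ifngr1 in PLA4). Of these, Jak2 alone (9.09%) was called higher in PLA than in each other line, where 5.08% of all genes were. Jak2 was at 117 and 120 CPM in PLA against 51.0 to 74.4 CPM elsewhere (largest edgeR adjusted p = 0.0192).

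Of 17 tested genes that sense nucleic acids or signal to interferon, 3 were called higher and 1 lower in PLA than in each other line, where 5.08% and 5.51% of all genes were. Sting1, the adaptor for cytosolic DNA sensing, was at 19.6 and 18.5 CPM in PLA, 0.0619 and 0.0415 in PLA4, 2.99 and 1.91 in PL12, and 0.104 and 0.185 in PL1 (largest edgeR adjusted p = 0.00232). Cgas, the enzyme upstream of STING, went the other way, at 2.37 and 2.67 CPM in PLA against 4.94 to 10.4 CPM elsewhere (largest edgeR adjusted p = 0.0137). Irf5 and Irf2, both transcription factors, were the others called higher. A further list held 9 genes, most of them negative regulators. Of these 1 (11.1%) was called higher in PLA than in each other line, where 5.08% of all genes were. This was Isg20, an interferon-induced exonuclease rather than a regulator, at 70.1 and 70.0 CPM against 13.3 to 32.9 CPM elsewhere. The other 8, among them Socs1 and Socs3, were not called in all 3 comparisons.

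Another 55 interferon-stimulated genes were listed and 51 were tested. This list too was chosen with earlier results of these data known, so it is no independent check. In PLA 12 of them were called higher than in each other line, where 5.08% of all genes were, and 1 was called lower, where 5.51% were. Both PLA libraries lay above the other 6 for 44 of them (86.3%), where 19.8% of all genes tested did so. The median log2 fold change of PLA was 2.42 against PL1, 2.17 against PL12 and 2.55 against PLA4. Among the 12 called higher, the 4 whose smallest difference was largest were Apol9a, Herc6, Psmb9 and Ifitm1. Ifitm1 was at 1789 and 1671 CPM in PLA and at 42.0 to 248 CPM elsewhere, and Psmb9, a subunit of the immunoproteasome, at 49.3 and 45.1 CPM in PLA and 1.16 to 6.16 CPM elsewhere. Slfn9 was the gene called lower, at 19.1 and 19.4 CPM in PLA and 33.4 to 94.6 CPM elsewhere.

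Markers of other cells were read beside these results. Ptprc, which marks all leukocytes, was at 0 counts in the 4 libraries of the PLA lines and at no more than 3 in any other, and the T, NK and B cell list summed to at most 0.09 TPM. The 6 macrophage or monocyte markers summed to 189 and 186 TPM in PLA, 59.6 and 12.5 in PLA4, 222 and 215 in PL12, and 12.8 and 112 in PL1. Of these, Adgre1 and Lyz2 were at 0 in PLA, while Cd14 was at 115 and 111 CPM, Itgam at 51.5 and 48.1 CPM, Cd68 at 29.0 and 27.2 CPM and Csf1r, the receptor of a macrophage growth factor, at 3.44 and 4.19 CPM. Csf1r was higher in PL12, at 12.3 and 11.1 CPM. Itgam was called higher in PLA than in each other line, where it was between 0.138 and 1.0 CPM (largest edgeR adjusted p = 0.0035). Between the libraries of PLA4 and of PL1 the sum of this list moved in the same direction as the 39 members. In each of these lines only 2 of the 6 markers had a mean of at least 1 CPM, and both passed 2-fold in that direction. The part of this list in the differences of the members was not tested.

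Some levels rest on shared sequence. Of the 50-base words of the Oas1a transcripts 57.6% also occur in Oas1g, and Gbp7, Igtp, Rtp4 and Ifitm3 share between 10.02% and 12.7% of theirs with other genes. Dhx58 is overlapped over 2637 bases by the antisense gene Dhx58os and Usp18 over 15715 bases by Gm44148, and the sources used here do not say whether counting used strand. Further members overlap annotated genes as well. Among them are Irf1 (Gm17334, 907 bases), Oas2 (Gm43068, 1273), Parp14 (Gm49730, 1773) and Rtp4 (Gm45338, 39791). The values of these genes are uncertain to that extent.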

How the data were processed

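Bulk RNA-seq of 8 libraries, 2 from each of 4 lines, was analysed by gene. Per the labels' protocols, SMARTer PCR cDNA went into Nextera XT libraries. The authors deposited a table of expected counts (estimates, not always whole) and a table of TPM values. GRCm38 and the tools FastQC, STAR, RSEM and DESeq2 are named by the submitters' processing notes, with versions and settings not given in the sources used here. Of the deposited expected counts 14.2% were not whole, and they were rounded before testing. TPM served to compare levels between genes.

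Counts were tested in R 4.3.3 with edgeR 4.0.16 (quasi-likelihood test, limma 3.58.1), TMM scaling, filterByExpr (minimum count 10, minimum total 15) and 1 mean per line, which left 4 residual degrees of freedom. Adjusted p is by Benjamini-Hochberg over all genes tested. For the PLA and PL lines, counts were also summed per line (18859 genes tested). Standard errors come from the quasi-likelihood F statistic. The tests were run on simulated data first. The simulated libraries of a line differed by random spread alone, unlike those of PLA4 and PL1. That run therefore does not check the tests where the libraries of a line stand apart. Alternatives were DESeq2 1.42.0, other scalings, no filter, a replicate block and libraries left out.

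The members and lists were chosen with earlier results of these data known. Per-library values are given for all transcription factors and ISG15 system genes, and for the member of each other group with the highest mean CPM and the one with the widest range of line means. They are also given for some, but not all, members whose order of lines differs from their group. Other genes named were chosen after their values were seen. A further gene is not reported here. Coordinates and overlaps come from GENCODE mouse release M21 on GRCm38, which held 54435 gene identifiers with their version and 55227 without it. Promoter windows of 300 bases come from RefSeq. They held 30 members, and those not in the table were Usp18, Zbp1, Dhx58, Mx1, Mx2, Parp14, Iigp1, Rtp4 and Oas2. Floors and counts cover counting error only.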

Additional observations from a re-analysis of the deposited data

How the results depend on the processing

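Counts of called members are given in the order PLA against PL1, PL12 and PLA4, PLA4 against PL1 and PL12, PL12 against PL1, PLA against each other line, and all 4 comparisons of a PLA with a PL line. They were 14, 18, 10, 0, 5, 2, 6 and 0, beside 27.3%, 37.7%, 29.0%, 8.54%, 36.0%, 23.7%, 5.08% and 1.99% of all genes. These shares are for either direction, except higher alone for PLA against each other line. DESeq2 gave 31, 25, 26, 4, 11, 5, 17 and 4, beside 35.4%, 42.4%, 36.4%, 20.5%, 41.2%, 31.2%, 6.39% and 4.62% of genes (and 7 on summed profiles, beside 1.88%). With no filter on low counts they were 32, 26, 27, 4, 10, 6, 17 and 4, beside 17.3%, 22.3%, 18.4%, 7.13%, 21.4%, 14.7%, 3.26% and 1.45%. Without PL1 replicate 1 and PLA4 replicate 2 they were 38, 37, 35, 28, 30, 28, 31 and 17, beside 52.7%, 63.9%, 54.9%, 44.2%, 59.9%, 51.5%, 11.3% and 12.5%. Without PL1 replicate 2 and PLA4 replicate 1 they were 38, 37, 39, 28, 32, 35, 36 and 2, beside 56.5%, 64.5%, 56.7%, 38.1%, 58.8%, 51.2%, 15.3% and 10.7%. Leaving out 1 library at a time gave ranges of 2 to 31, 2 to 27, 2 to 26, 0 to 8, 1 to 11, 1 to 6, 1 to 21 and 0 to 4. The libraries of 2 lines alone gave 22 for PLA against PL1 (32.2% of genes) and 37 for PLA against PL12 (71.3%). Fits on fewer libraries change both the spread and the residual degrees of freedom, and the cause of the changed counts was not tested. Both other scalings and a 2-fold minimum kept all counts within 1.5 times. A promoter motif of 3 repeats was found in 6 members in place of 20.

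With the replicate block the counts were 9, 13, 4, 0, 2, 1, 3 and 0, beside 20.7%, 31.9%, 22.6%, 2.93%, 29.9%, 17.0%, 3.65% and 0.708% of genes. Whether the numbers pair the libraries is not known. The differences between replicates correlated between lines at -0.19 to 0.01, which does not decide it. A crossed pairing of PLA with PL12 (r = -0.16), fitted on those 2 lines and added after seeing the data, called 38 (72.0% of genes), and one of PLA4 with PL1 (r = -0.19) called 0.

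The smallest log2 fold change of PLA over another line changed sign for 3 members. For Gbp2 it was -0.04, and 0.20 with the replicate block, 1.77 without PL1 replicate 2 and PLA4 replicate 1, and -0.89 to 1.77 with 1 library left out. For Ddx58 it was 0.17 and for Gbp3 0.67. Without PL1 replicate 1 and PLA4 replicate 2 they were -0.26 and -0.18, and with 1 library left out -0.26 to 0.65 and -0.18 to 2.52, with both ends from leaving out a PLA4 library. The libraries of PLA4 lay on either side of PLA for these genes. Depth limits Gbp5, Oas2 and Iigp1, which had fewer than 3 counts in PL1 replicate 1.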
